A study of Mus musculus with 1024 samples.

Results

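Aortic cells that carried Cd31 on their surface were compared with cells of the same suspensions that did not. Of 1024 labelled wells, each sorted to hold a single cell, 76.6% had at least 20000 counts on genes and 500 genes and were kept. The Cd31+Cd45- gate (labelled Endothelial) held 87.5% of the labelled wells, of which 75.4% were kept. The Cd31-Cd45- gate (labelled DoubleNegative) held 12.5%, of which 84.4% were kept, 42, 12, 40 and 14 wells in WT_sort_1, WT_sort_2, KO_sort_1 and KO_sort_2. Counts were summed over the kept wells of each gate within each of the 4 genotype labels, WT_sort_1, WT_sort_2, KO_sort_1 and KO_sort_2, so that 4 Cd31+ sums stood against 4 Cd31- sums, paired by label.

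The wall of the aorta has an inner lining of endothelial cells, a middle layer of smooth muscle cells between elastic lamellae, and an outer layer of fibroblasts in collagen. Endothelial cells hold to each other through the adhesion proteins VE-cadherin (Cdh5) and Cd31 (Pecam1), carry blood clotting regulators on their surface and send signals to the muscle below. Smooth muscle cells set the vessel's tone through actin and myosin filaments, and fibroblasts lay down the fibrillar matrix.

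All mice were 3 months old, on the C57BL/6 background, and carried the same strain label, spelled Amotl2flow/flow / Cdh5-RREert /ROSA26-EYFP, in WT and KO alike. By the study's methods the mice held a loxP-flanked amotl2 gene, the tamoxifen-inducible Cdh5(PAC)CreERT2 driver, which acts in endothelial cells, and the EYFP reporter of Cre activity. Tamoxifen was injected into the abdominal cavity on consecutive days to inactivate amotl2 in endothelial cells, and samples were analysed weeks later. KO stands for amotl2 ec-/ec- and WT for amotl2 ec+/ec+ mice. The methods do not say whether the WT mice were injected too. The luminal side of perfused aortas was digested, Cd45+ cells were depleted on beads, and viable cells were sorted into plates for Smart-seq2, a full-length polyA RNA method without molecular identifiers. The Cd31- cells were taken as a small control beside the Cd31+ cells, from the same plates. The labels name no mice and cells of several mice may be in a label, so p-values measure the spread between these 4 pairs of sums.

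The Cd31+ sums held 8470943 to 94881185 gene counts and the Cd31- sums 926398 to 9435015, with medians of 159625 and 117926 counts per well. No well was in more than 1 sum. Gene counts per spike-in count, a relative measure of RNA per well on the log2 scale, differed by 0.10 ± 0.44 (SD, n = 4 pairs) between the gates, higher in Cd31+ in 2 of 4 pairs (exact sign-flip permutation test over pairs, two-sided, p = 0.75, with 0.125 the smallest p that 4 pairs allow). At 20000 counts per well, Cd31+ wells had 180.5 ± 287.2 (SD) more detected genes per well, in 3 of 4 pairs (the same test, p = 0.375). Both differences were smaller than their spread over the pairs.

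Some wells stood apart from their gate. Clustering gave 5 clusters of wells named endothelial-like, in each of which at least 5 of 7 endothelial markers were detected and higher (in 1 of them the top genes were Cd74 and H2-Aa, which serve antigen presentation), 1 smooth muscle-like cluster of 84 wells and 1 fibroblast-like cluster of 39 wells. Of the Cd31+ wells, 660 were endothelial-like (97.6%), 14 smooth muscle-like and 2 fibroblast-like. The endothelial-like class holds 1 WT_sort_1 well with no count of Cdh5 or Pecam1, whose own markers go against that name. All of those 14 wells had Pecam1 (median 3312 CPM, counts scaled to a common library size) together with Myh11, and they carried 91.9% of the Cd31+ gate's Myh11 counts and 58.8% of its Acta2 counts in 2.0% of its total counts. The 2 fibroblast-like Cd31+ wells carried 39.8% of the gate's Dcn counts. No doublet caller was run, since cells had been sorted through a singlet gate, and whether these wells held more than 1 cell was not tested.

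The Cd31- wells fell into 70 smooth muscle-like wells (64.8%), 37 fibroblast-like wells (34.3%) and 1 endothelial-like well. Their mixture differed between labels. Smooth muscle-like wells made up 38.1% of the Cd31- wells in WT_sort_1, 83.3% in WT_sort_2, 77.5% in KO_sort_1 and 92.9% in KO_sort_2, and fibroblast-like wells made up 61.9%, 8.33%, 22.5% and 7.14% in the same order. The endothelial-like well lay in WT_sort_2, where it had 38635 counts of the sum's 988038 and 96.6% of the sum's Pecam1 counts. In sums over wells of several cell types, fewer cells of a type and less RNA per cell cannot be told apart. The classes are clusters made from these same counts. A gene's split between the Cd31- classes therefore describes them and is no separate test, above all for top genes of a cluster such as Mmp3, F3, Rgs5 and Serpine2.

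**Figure D1:**
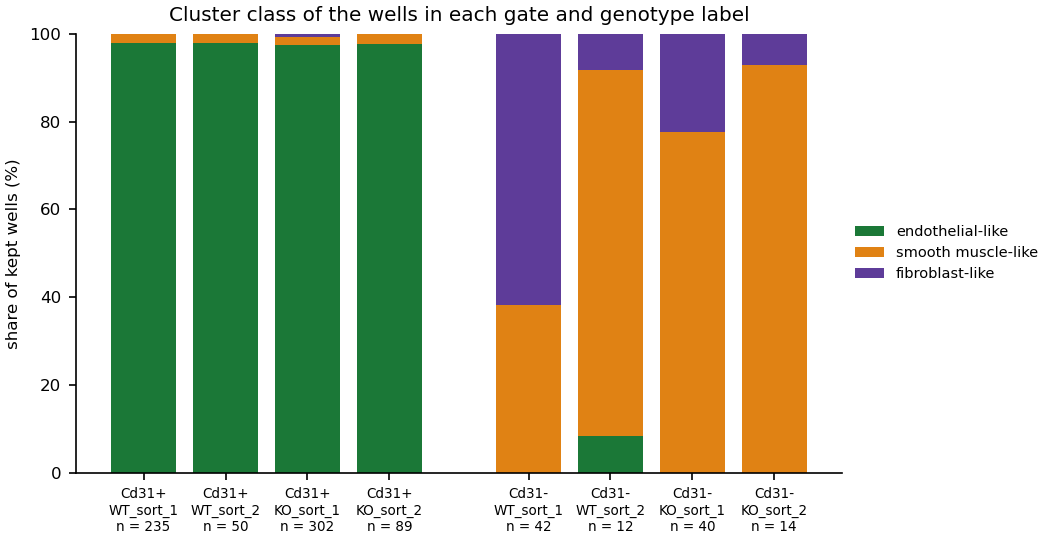
Share of kept wells (%, vertical axis) by cluster class in each gate and genotype label, with the number of wells under each bar. Between 97.4% and 98% of the wells in every Cd31+ bar were endothelial-like, whereas the Cd31- bars ran from 38.1% to 92.9% smooth muscle-like wells.

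The sorted label was first checked against 4 defining genes. CPM is given throughout in the order WT_sort_1, WT_sort_2, KO_sort_1, KO_sort_2, scaled by TMM factors. Pecam1 (chr11:106654217-106750628, minus strand, GRCm38), which encodes Cd31 itself, stood at 8274, 7796, 6993 and 7200 CPM in Cd31+ and at 20.4, 524.98, 5.28 and 5.93 CPM in Cd31-. Cdh5 (chr8:104101625-104144511, plus strand) stood at 190.1, 200.97, 265.95 and 214.7 CPM against 0.471, 40.1, 0.550 and 0. The gates did not overlap for either gene, and the highest Cd31- sum was in both cases the one with the endothelial-like well. Adjusted p-values throughout are from edgeR's quasi-likelihood test with the genotype label as a block, with Benjamini-Hochberg adjustment over 11579 genes. The log2 fold change was 8.596 ± 1.30 (SE) for Pecam1 (adjusted p = 0.00399) and 6.94 ± 1.33 for Cdh5 (adjusted p = 0.0106). Without that well and 1 Cd31+ well that lacked all 4 markers, the fit gave 9.44 for Pecam1 and 9.04 for Cdh5. Both wells were picked by their Pecam1 and Cdh5 counts. The larger differences of these same genes therefore follow from the choice and are no separate test.

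Myh11 (chr16:14194535-14291372, minus strand), the smooth muscle myosin heavy chain, was at 53.5, 5.65, 108.99 and 46.99 CPM in Cd31+ and at 1832, 5537, 4035 and 5931 CPM in Cd31-. The difference was -6.61 ± 0.90 on the log2 scale (adjusted p = 0.00248), and -11.90 without the wells that clustered with the other gate. Myh11 was itself a top gene of the smooth muscle-like cluster, so the second value was largely fixed by the choice of wells. Dcn (chr10:97479609-97518143, plus strand), the collagen-binding proteoglycan decorin, was at 113.9, 71.03, 162.8 and 158.3 CPM against 20992, 1522, 6071 and 4221 CPM. Its difference was -5.41 ± 0.56 (adjusted p = 0.000827), and WT_sort_1, with the largest share of fibroblast-like wells, had the highest Cd31- value.

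Counted by well, Pecam1 was detected in 99.9% of Cd31+ wells and 14.8% of Cd31- wells, and Cdh5 in 94.5% (95% exact Clopper-Pearson interval 92.5% to 96.1%) and 2.78% (0.577% to 7.90%). Myh11 was detected in 5.33% of Cd31+ wells (3.76% to 7.30%) and 70.4% of Cd31- wells (60.8% to 78.8%). Dcn was detected in 22.5% of Cd31+ wells (19.4% to 25.8%) and 54.6% of Cd31- wells (44.8% to 64.2%). Thinned to 20000 counts per well the shares were 83.4% and 0.926% for Cdh5, 3.25% and 66.7% for Myh11, and 18.6% and 42.6% for Dcn. These intervals cover counting error only, and reads without molecular identifiers are not independent molecules.

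**Figure D2:**
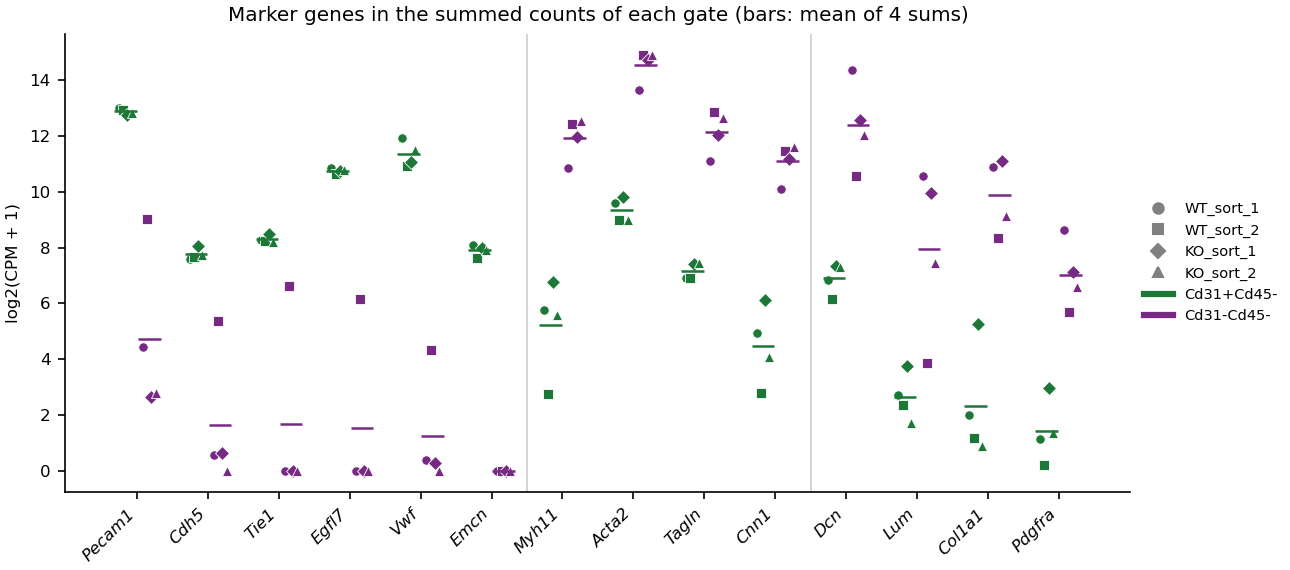
Summed counts as log2(CPM + 1) (vertical axis) for marker genes, 1 point per genotype label and gate, with bars at the mean of the 4 sums. The 4 Cd31+ points of Pecam1 and Cdh5 lie above all Cd31- points, those of Myh11 and Dcn below them, and the raised Cd31- points of Pecam1 and Cdh5 are those of WT_sort_2 at 524.98 and 40.1 CPM.

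Amotl2 (chr9:102716672-102733418, plus strand), the gene targeted in the endothelium of KO mice, did not separate the gates. It stood at 57.7, 88.5, 47.2 and 46.04 CPM in Cd31+ and at 64.3, 35.9, 53.6 and 154.2 CPM in Cd31-, with overlapping sums and a log2 difference of -0.21 ± 0.48 (adjusted p = 0.826). The sign turned under 3 alternative settings. The fit gave 0.61 in WT alone and -0.94 in KO alone. The difference in KO minus that in WT was -1.50 ± 0.84 (edgeR's quasi-likelihood test, unadjusted p = 0.117). The paper verified recombination by the loss of exon 3 from the transcript, and counts over the whole gene do not separate intact from recombined transcripts. EYFP, which Cre activity switches on, had counts in all 4 Cd31+ sums and in no Cd31- sum. It was detected in 76.5% of KO_sort_1 and 85.4% of KO_sort_2 Cd31+ wells, in 1.7% and 4.0% of WT_sort_1 and WT_sort_2 Cd31+ wells, and in 0% of Cd31- wells, which allows a share of wells with a count of up to 2.78% (3 wells), a limit for counting error only. Ptprc, which encodes Cd45, had 1 count among all kept wells. The summed CPM of 6 leukocyte markers reached at most 4.84 in any sum, with Lyz2 and Cd3e at 0 in both gates. Laptm5, a leukocyte marker left out of these 6, had 1250 counts in Cd31+, spread over all 4 sums, and 0 in Cd31-. Laptm5 was also a top gene of an endothelial-like cluster.

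Across the genes tested, 928 were higher in Cd31+ (8.01%) and 939 in Cd31- (8.11%), together 16.1%, and 27.7% had an unadjusted p under 0.05. The median log2 difference over all genes was 0.22. Called genes differed by a median of 3.68 on the log2 scale among those higher in Cd31+ and 3.67 among those higher in Cd31-, and 38.8% and 36.5% of them by 5 or more. Of the Cd31+ calls, 16.9% had 0 counts in all 4 Cd31- sums, against 0.532% of the Cd31- calls with 0 counts in all Cd31+ sums. The shallower Cd31- sums set a higher detection floor of 0.174 CPM (3 counts over the gate) than the 0.0180 CPM of the Cd31+ sums. Folds given below as "at least" rest on this floor. They allow for counting error of reads only, not for the spread between wells or pairs. All 4 sums of a gate lay above all 4 of the other in 97.7% of Cd31+ calls and 92.5% of Cd31- calls, beside 15.2% and 10.8% of all genes tested.

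The difference was also taken within each sort. Sort 1 alone called 3.61% and 3.85% of the genes tested there and sort 2 alone 5.09% and 5.44%, for Cd31+ and Cd31-, and none of the calls turned direction. No gene's gate difference differed between WT and KO at an adjusted p under 0.05 (0%, with 2.6% at an unadjusted p under 0.05, and 5 genes by DESeq2), which does not show that the gate differences were alike in WT and KO. Without WT_sort_1 the count of such genes was 21, in a fit where the single WT pair is taken to vary like the KO pairs. Without KO_sort_1 the gate difference itself was called for 4.91% and 5.45% of genes, and without KO_sort_2 for 4.46% and 4.82%. Between the sorts the count was also 0 (0%, with 5.28% at an unadjusted p under 0.05). With each well given an equal vote (limma), 2074 genes were higher in Cd31+ and 1204 in Cd31-, so that 63.3% of the calls went to Cd31+, against 49.7% in the sums.

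**Figure D3:**
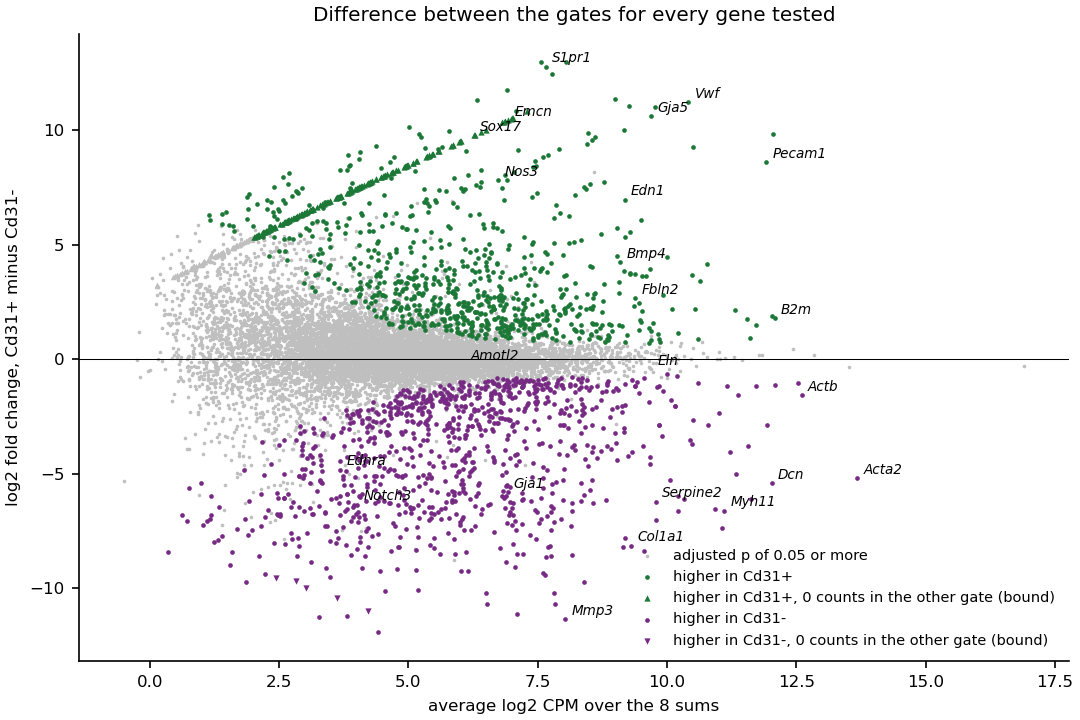
Log2 fold change between the gates (vertical axis, positive when higher in Cd31+) against average log2 CPM over the 8 sums, 1 point per gene tested. The 928 green and 939 purple points are the calls, and triangles mark genes with 0 counts in the other gate, drawn at the bound that a floor of 3 counts allows.

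Lists of genes were read next, and the calls of every list stand beside 8.01% (Cd31+) and 8.11% (Cd31-) of all genes tested. The endothelial identity list was nearly wholly on the Cd31+ side. Of its 20 genes, all measured, 19 were higher in Cd31+ and none in Cd31-, with a median log2 difference of 8.49, or 7.69 with genes at 0 counts in Cd31- set to their bound. Flt1, a VEGF receptor, was the exception at 58.3, 13.96, 27.97 and 32.1 CPM against 0, 8.45, 13.5 and 7.12 CPM (adjusted p = 0.286), although its sums did not overlap. Vwf, the platelet-binding von Willebrand factor, stood at 3908, 1951, 2128 and 2878 CPM in Cd31+ and at 0.314, 19.01, 0.220 and 0 CPM in Cd31-, a difference of 11.21 ± 1.41 (adjusted p = 0.00181). Each Cd31+ sum was far above each Cd31- sum, and the highest Cd31- value was again in WT_sort_2. Emcn, the mucin-like endomucin, stood at 271.4, 198.4, 254.6 and 241.1 CPM and had no count in any Cd31- sum, so it was at least 1389-fold higher. Kdr, the main VEGF receptor, was lower throughout at 21.1, 1.58, 18.01 and 15.5 CPM against 0 in every Cd31- sum, at least 80.7-fold higher, and was detected in 8.88% of Cd31+ wells. The guidance receptor Robo4, also at 0 in Cd31-, was at least 77.2-fold higher.

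In WT_sort_2 the endothelial genes of the Cd31- sum came largely from the single endothelial-like well. There 16 of the list's genes had a count, and this well gave all counts of 9 and at least 90% of those of 10. Tie1, an orphan receptor of the angiopoietin system, was at 0, 98.2, 0 and 0 CPM in Cd31- against 310.02, 297.7, 362.2 and 290.6 CPM in Cd31+ (8.39 ± 2.11, adjusted p = 0.0319). Without the well Tie1 had no Cd31- count and was at least 1813-fold higher. The tight junction protein Cldn5 moved in the same way, from 10.003 ± 2.60 (adjusted p = 0.0367) to at least 5897-fold, as did Egfl7, a secreted vascular protein, at least 9935-fold higher without the well.

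The promoters of this list were searched for AGGAAG, the core that ETS factors such as Erg and Fli1 bind, on both strands (CTTCCT is the same core read on the other strand). RefSeq windows around transcription starts (GRCm38.p6) were at hand for 10 of the 20 genes. The core lay in windows of 7 of these 10 genes (70%), against 38.4% of all 27025 genes with a window, and in 39.4% of the windows of genes higher in Cd31+ against 33.3% of those of genes higher in Cd31-. In windows of the endothelial transcription factor list it lay in 4 of 11 genes (36.4%). The stretches below show it in windows of 6 genes higher in Cd31+, with the core in capitals, 5′ to 3′ on the gene's strand. They are Egfl7 (chr2:26580985-26581008, plus strand), Emcn (chr3:137340895-137340918, plus), Robo4 (chr9:37401914-37401937, plus), Eng (chr2:32646534-32646557, plus), Tie1 (chr4:118490054-118490077, minus) and Erg (chr16:95459374-95459397, minus). A match describes these letters and is not a measured binding site.
Egfl7: gagacaaacAGGAAGgccatctct
Emcn: gaagggtctCTTCCTgttcaaatc
Robo4: gggccaggcAGGAAGcatccgttt
Eng: cctgtggcaCTTCCTctactcgcc
Tie1: agccactggCTTCCTccctttcct
Erg: tagaaacctCTTCCTgccattggc

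Among the 15 genes with the largest Cd31+ difference, all of which had 0 counts in the 4 Cd31- sums, bounds ran from 655.9-fold to 1800-fold. This order holds with the endothelial-like Cd31- well kept, since without it Egfl7, Cldn5, Icam2, Sox18 and Tie1 had higher bounds, from 1813-fold to 9935-fold. Gcnt1, a glycan-branching transferase, stood at 240.2, 337.97, 250.1 and 423.3 CPM and was at least 1800-fold higher. Podxl, the sialomucin podocalyxin of the luminal surface, was at least 1483-fold and Nt5e, the ectonucleotidase that makes adenosine, at least 1474-fold higher. The others included Emcn, Pkhd1l1, Adgrf5, Tspan13, Klhl6, Acer2, Plek2, Sox17, Dll1, Adra2a and Cd36. Cd36, a fatty acid translocase, differed from the rest in its spread, at 140.2, 3.74, 160 and 152.2 CPM, and was detected in 5.45% of the endothelial-like Cd31+ wells, against 76.8% for Sox17.

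Of 19 endothelial transcription factors tested, 14 were higher in Cd31+ (73.7%) and 1 in Cd31- (5.26%), with a median log2 difference of 3.96. Of all genes, 8.01% and 8.11% were called. Sox17 (chr1:4490931-4497354, minus strand), a factor of arterial endothelium, stood at 117.3, 151.7, 163.3 and 178.2 CPM and was at least 878.3-fold higher. Hhex, Lyl1, Tal1 and Bcl6b also had 0 counts in Cd31- and were at least 638.2-fold, 347.99-fold, 203.9-fold and 194.8-fold higher. Gata2 had a single Cd31- count, in the endothelial-like well, and was at 212.4 to 257.001 CPM in Cd31+. Nr2f2, a factor known from venous endothelium, was the 1 member higher in Cd31-, at 116.1, 64.4, 76.2 and 43.9 CPM against 37.2, 0.166, 6.22 and 2.50 CPM (-4.01 ± 0.96, adjusted p = 0.0271). Erg, which holds endothelial identity, showed Cd31- counts in all 4 sums at 30.1, 17.96, 35.7 and 21.3 CPM, below 115.7, 77.1, 92.7 and 92.6 CPM in Cd31+. It was chosen for naming after its values were seen.

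The endothelial junction list was split. Of 21 genes tested, 10 were higher in Cd31+ and 4 in Cd31-, with a median log2 difference of 1.06. Gja5, the arterial connexin 40, stood at 2083, 1445, 1353 and 1407 CPM against 0.157, 338.02, 0 and 0 CPM (10.61 ± 2.49, adjusted p = 0.0246), the 338.02 CPM coming wholly from the endothelial-like well. Its muscle counterpart Gja1, connexin 43, was reversed, at 7.64, 0.166, 8.002 and 5.71 CPM against 143.2, 172.2, 240.8 and 397.3 CPM (-5.80 ± 0.83, adjusted p = 0.00309). For both connexins the 2 gates did not overlap. Jam3 (-3.31 ± 0.31), the mesenchymal cadherin Cdh11 (-6.33 ± 0.48) and the actin linker vinculin, Vcl (-2.08 ± 0.25), were the other members higher in Cd31-, with adjusted p-values of 0.000673, 0.000401 and 0.00157. The tight junction gene Ocln had a single Cd31- count against 43.7, 97.5, 76.2 and 71.4 CPM in Cd31+.

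All 18 smooth muscle contractile genes were higher in Cd31-, and none of their sums overlapped. Their median log2 difference was -5.65, beside 0.22 over all genes. Acta2 (chr19:34241090-34255590, minus strand), smooth muscle actin, stood at 771.5, 509.4, 903 and 508.8 CPM in Cd31+ and at 12805, 31050.0, 26848 and 30988 CPM in Cd31- (-5.21 ± 0.39, adjusted p = 0.000401). Without the wells that clustered with the other gate the difference of Acta2 was -6.23. This is no separate test, since Acta2 too was a top gene of the smooth muscle-like cluster. The calponin gene Cnn1 stood at 29.6, 5.98, 69.2 and 15.8 CPM against 1105, 2809, 2311 and 3124 CPM (-6.64 ± 0.78, adjusted p = 0.00137). WT_sort_1, with the lowest share of smooth muscle-like wells, was the lowest Cd31- sum for both Cnn1 and Myh11. The intermediate filament gene Des varied most among the Cd31- sums, at 90.3, 24.3, 237.6 and 681.9 CPM, and the actin gene Actg2 was at 292.04, 676.03, 311.2 and 230.1 CPM.

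The CArG box, the element that serum response factor binds in many contractile genes, was searched in the same windows. It lay in 1 of 16 windows of the list, that of Myl9, the myosin regulatory light chain, against 1.63% of all 32851 windows. It lay in 3.125% of the windows of genes higher in Cd31- and in 1.12% of those of genes higher in Cd31+. The Myl9 stretch is printed with the box in capitals (chr2:156775294-156775321, plus strand).
Myl9: aagcagaggCCTAATAAGGccgggctgg

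Genes that move ions in smooth muscle followed the contractile genes. Of 11 tested, 9 were higher in Cd31- and none in Cd31+. Kcnma1, the pore of the large calcium-activated potassium channel, stood at 0.555, 0, 0.374 and 0.595 CPM in Cd31+ against 31.4, 57.04, 65.1 and 60.5 CPM (-7.17 ± 0.85, adjusted p = 0.00140), and its partner Kcnmb1 differed by -5.98 ± 0.70 (adjusted p = 0.00136). Cacna1c, the L-type calcium channel, stood at 25.4, 44.4, 47.5 and 29.6 CPM in Cd31- and at most at 1.65 CPM in every Cd31+ sum (-6.18 ± 0.83, adjusted p = 0.00234). The calcium-activated chloride channel Ano1 was at 21.8, 71.8, 71.8 and 115.04 CPM in Cd31-.

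All 6 pericyte markers tested were also higher in Cd31-. Rgs5, a regulator of G-protein signals, was at 998, 1165, 1220.3 and 1135 CPM against 9.14, 0.831, 40.2 and 0.119 CPM (-8.21 ± 1.35, adjusted p = 0.00556). In the Cd31- gate it had 1699 CPM in smooth muscle-like wells and 12.002 CPM in fibroblast-like wells. Abcc9, a subunit of the ATP-sensitive potassium channel, had 317.7 CPM in smooth muscle-like and 448.1 CPM in fibroblast-like wells.

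Of the 16 genes of the fibroblast and interstitial matrix list, 12 were higher in Cd31-, with a median log2 difference of -5.56. Col1a1, a chain of type I collagen, stood at 3.01, 1.25, 36.9 and 0.833 CPM in Cd31+ and at 1915, 323.2, 2219 and 564.5 CPM in Cd31- (-8.14 ± 0.73, adjusted p = 0.000586). Its highest Cd31+ value was in KO_sort_1, the label with both fibroblast-like Cd31+ wells, which carried 54.2% of the gate's Col1a1 counts. Pdgfra, the receptor that marks mesenchymal cells, differed by -6.53 ± 0.80 (adjusted p = 0.00160) with 391.6, 50.7, 137.1 and 94.9 CPM in Cd31-. Pi16, Clec3b, Mfap5 and Mmp2 were not called, and Mfap5 and Mmp2 were well measured in Cd31+, at 334.7 to 494.1 CPM and 153.2 to 227.4 CPM.

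The 15 genes with the largest Cd31- difference were led by Mmp3, the matrix protease stromelysin, at 0, 0, 1.04 and 0 CPM in Cd31+ against 1572, 16.9, 456.6 and 40.3 CPM in Cd31- (-11.36 ± 1.44, adjusted p = 0.00188). Its Cd31- level was highest in WT_sort_1, the label with the most fibroblast-like wells, and lowest in WT_sort_2. Inmt, a methyltransferase, followed at -11.14 ± 1.17 (adjusted p = 0.000849). Igfbp6, which binds insulin-like growth factors, and the complement component C7 came next at -10.71 ± 1.202 and -10.70 ± 1.81 (adjusted p = 0.00115 and 0.00624). Srpx differed by -10.22 ± 0.48 (adjusted p = 0.000109). The rest were Dpep1, Plcxd3, Smoc2, Scara5, Dpt, Cpxm2, Medag, Tnfrsf11b, Mmp23 and Abca8a. Within the Cd31- gate 14 of the 15 had more CPM in fibroblast-like wells than in smooth muscle-like wells, as with Mmp3 at 2185 against 2.27 CPM. The exception, Tnfrsf11b, a decoy receptor of bone and vessel wall, had 107.02 CPM in smooth muscle-like wells, and a single well gave 49.9% of its Cd31- counts. Mmp3, Dpep1, Smoc2, C7 and Dpt were themselves among the top genes of the fibroblast-like cluster. Their split was largely fixed by how the classes were made.

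Matrix genes did not all lie on the Cd31- side. Of 14 elastic fibre genes 7 were higher in Cd31- (50%) and 2 in Cd31+ (14.3%), with a median of -1.21. Fbn1, the microfibril protein fibrillin-1, stood at 35.7, 24.3, 30.7 and 31.9 CPM in Cd31+ against 473.2, 105.6, 351.6 and 186.2 CPM (-2.99 ± 0.35, adjusted p = 0.00135), and Ltbp1, which holds latent TGF-beta in the matrix, differed by -6.16 ± 0.40 (adjusted p = 0.000334). Fbln2, or fibulin-2, was higher in Cd31+ at 773.95, 1122, 1443 and 1132 CPM against 484.6, 143.7, 184.7 and 72.3 CPM (2.68 ± 0.52, adjusted p = 0.0114). Of its WT_sort_2 Cd31- counts, 80.9% came from the endothelial-like well. Ltbp4 was at 801.6, 1023, 1391 and 1085 CPM against 443.2, 212.3, 508.3 and 303.6 CPM (1.60 ± 0.27, adjusted p = 0.00654). Neither gene's sums overlapped between the gates. Eln, elastin itself, was not called, at 636.8, 598.6, 815.001 and 630.97 CPM in Cd31+ and 574.5, 1688 and 793.4 CPM in the WT_sort_1, KO_sort_1 and KO_sort_2 Cd31- sums, with WT_sort_2 between the last 2 (adjusted p = 0.297).

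The basement membrane list had 10 of 16 genes higher in Cd31- and none higher in Cd31+, with a median of -1.81. Col18a1, the collagen that yields endostatin, stood at 60.7, 87.98, 70.8 and 59.005 CPM against 335.8, 1130.2, 1164 and 1223 CPM (-3.65 ± 0.36, adjusted p = 0.000733) and was mainly in smooth muscle-like wells, at 1267 CPM against 50.2 CPM in fibroblast-like wells. Lama2, a laminin chain of muscle, was the reverse, with 344.5 CPM in fibroblast-like and 11.6 CPM in smooth muscle-like wells. Col4a2, a chain of the type IV collagen network, was at 100.8, 103.9, 84.3 and 101.1 CPM in Cd31+ and 377.4, 485.9, 355.5 and 524.2 CPM in Cd31- (-2.14 ± 0.22, adjusted p = 0.000827).

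**Figure D4:**
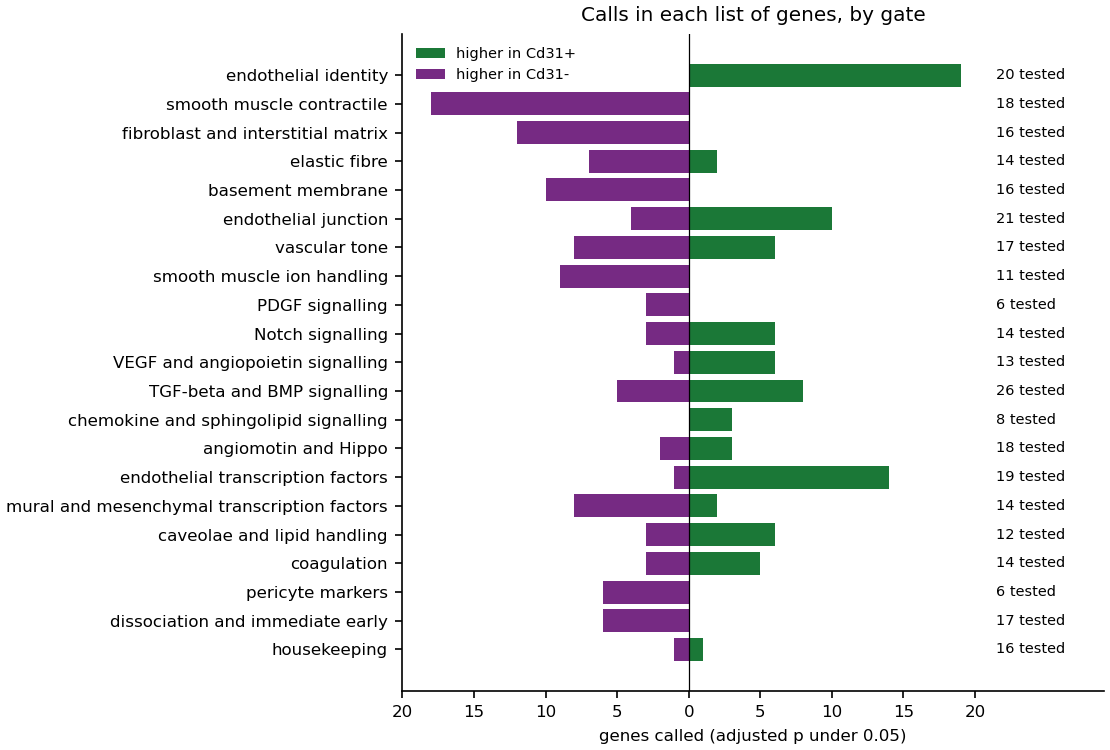
Number of genes called in each list (horizontal axis, to the right when higher in Cd31+ and to the left when higher in Cd31-), with the number tested. Of all genes tested, 8.01% and 8.11% were called. The endothelial identity bar reaches 19 of 20 to the right and the smooth muscle contractile bar 18 of 18 to the left, while the Notch, VEGF and angiopoietin, TGF-beta and BMP, vascular tone and caveolae and lipid lists have bars on both sides.

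Genes of vascular tone were called in both gates. Of 17 tested, 6 were higher in Cd31+ (35.3%) and 8 in Cd31- (47.1%). Nos3, the endothelial nitric oxide synthase, stood at 233.8, 188.01, 224.8 and 145.01 CPM against 0, 57.04, 0 and 0 CPM (7.81 ± 1.95, adjusted p = 0.0312), and without the endothelial-like well it had no Cd31- count and was at least 1139-fold higher. Edn1, the constrictor endothelin-1, stood at 996, 1513, 753.1 and 1318 CPM against 0.314, 15.8, 11.98 and 23.7 CPM (6.96 ± 0.91, adjusted p = 0.00207). The endothelin-converting enzyme Ece1 (3.91 ± 0.38), the prostanoid synthase Ptgs1 (5.05 ± 0.91), the angiotensin-converting enzyme Ace (2.85 ± 0.38) and the prostaglandin receptor Ptger4 (7.91 ± 0.91) were the other 4, with adjusted p-values from 0.000713 to 0.00821.

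Among the 8 genes higher in Cd31-, the nitric oxide receptor subunit Gucy1a3 was at 901, 500.6 and 929.8 CPM in the WT_sort_2, KO_sort_1 and KO_sort_2 Cd31- sums and lower in WT_sort_1. Its partner Gucy1b3 was at 100.5, 172.2, 108.7 and 217.03 CPM in Cd31-. All Cd31- sums of both lay above every Cd31+ sum (at most 39.9 and 9.74 CPM). These subunits were chosen for naming after their values were seen. Pde5a, which breaks down cyclic GMP, differed by -5.78 ± 0.87 (adjusted p = 0.00380) and the alpha-1D adrenergic receptor Adra1d by -7.72 ± 1.55 (adjusted p = 0.0129). The endothelin receptor Ednra was at 62.9, 1.06, 25.2 and 8.30 CPM in Cd31- against 1.08, 0, 1.52 and 0.476 CPM (-4.83 ± 0.85, adjusted p = 0.00752). The Ednra sums overlapped, its WT_sort_2 value of 1.06 CPM lying below the highest Cd31+ sum. Ptgis, the prostacyclin synthase, was also higher in Cd31-, at 708.3, 1506, 1195 and 1679 CPM against 513.96, 509.9, 535.3 and 552.8 CPM (-1.20 ± 0.25, adjusted p = 0.0159). It too was chosen for naming after its values were seen.

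In the Notch pathway, which passes signals between touching cells, the called ligands lay in Cd31+ and called receptors in both gates. Of 14 genes 6 were higher in Cd31+ (42.9%) and 3 in Cd31- (21.4%), with a median log2 difference of 2.56. The ligands Dll1 (114.5, 89.4, 152.5 and 157.4 CPM) and Dll4 (35.99, 18.9, 33.5 and 41.4 CPM) had 0 counts in every Cd31- sum and were at least 739.2-fold and 186.8-fold higher. Jag1, the ligand known for endothelial signals to muscle, was at 177.2, 158.4, 120.8 and 135.97 CPM against 28.5, 5.28, 21.54 and 40.3 CPM (2.78 ± 0.48, adjusted p = 0.00672). Notch3, the smooth muscle receptor, was at 1.21, 0, 1.06 and 0 CPM against 31.2, 42.3, 24.3 and 35.6 CPM (-6.35 ± 1.29, adjusted p = 0.0136), with 41.3 CPM in smooth muscle-like and 2.62 CPM in fibroblast-like Cd31- wells.

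The endothelial receptor Notch4 was higher in Cd31+, at 150.8, 99.4, 72.99 and 88.03 CPM against 3.29, 0, 0 and 0 CPM (7.36 ± 0.92, adjusted p = 0.00173). Notch2 was higher in Cd31- by a smaller margin (-1.48 ± 0.25, adjusted p = 0.00621). Notch1, at 325.2, 143.6, 225.3 and 150.1 CPM against 16.9, 59.2, 0.220 and 15.4 CPM, did not overlap between the gates but missed the threshold (adjusted p = 0.0534). The endothelial-like well gave 80.4% of the Notch1 counts in the WT_sort_2 Cd31- sum. Among the pathway's target genes, Nrarp, a feedback inhibitor, had 0 Cd31- counts and was at least 245.9-fold higher in Cd31+. Heyl was on the other side, at 194.8, 408.8, 400 and 308.3 CPM in Cd31- against 10.3, 7.89, 15.9 and 4.64 CPM (-5.14 ± 0.40, adjusted p = 0.000464).

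The VEGF and angiopoietin list holds receptors of vessel growth and stability with their ligands. It had 6 of 13 genes higher in Cd31+ (46.2%) and 1 in Cd31- (7.69%, near the 8.11% of all genes), with a median of 2.47. Tek, the angiopoietin receptor Tie2, was at 509.9, 909.7, 754.1 and 715.6 CPM against 11.9, 3.17, 1.98 and 0 CPM (7.65 ± 0.79, adjusted p = 0.000827). Its ligand Angpt2 was the 1 gene higher in Cd31-, at 8.78, 3.07, 8.18 and 37.6 CPM against 68.4, 91.9, 127.4 and 132.8 CPM (-3.40 ± 0.55, adjusted p = 0.00507). Within the Cd31- gate Angpt2 had 123.6 CPM in smooth muscle-like and 58.3 CPM in fibroblast-like wells. Flt4, the VEGF-C receptor, had 0 Cd31- counts and was at least 171.3-fold higher. Vegfc was higher in Cd31+ too (2.27 ± 0.57, adjusted p = 0.0320), although its sums overlapped, and the co-receptor Nrp1 differed by 2.47 ± 0.35 (adjusted p = 0.00290).

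The PDGF list, the signal that recruits mural cells, had 3 of 6 genes higher in Cd31- and none in Cd31+, with a median of -1.40. Pdgfrb, the mural cell receptor, was at 31.4, 34.7, 54.6 and 28.4 CPM against 170, 138.4, 148.2 and 196.9 CPM (-2.16 ± 0.31, adjusted p = 0.00295). Pdgfb, its endothelial ligand, was at 22.6, 23.9, 25.8 and 29.98 CPM in Cd31+ and at 0, 0, 6.38 and 26.1 CPM in Cd31-, and was not called (adjusted p = 0.186). Its single high Cd31- sum was that of KO_sort_2. Pdgfc was higher in Cd31- (-4.30 ± 1.01, adjusted p = 0.0248), with overlapping sums.

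In the TGF-beta and BMP list, of 26 genes tested 8 were higher in Cd31+ (30.8%) and 5 in Cd31- (19.2%), with a median of 0.44. Of all genes, 8.01% and 8.11% were called. The Cd31+ calls were the BMP ligands Bmp4, Bmp6 and Gdf6, the receptors Bmpr2, Acvrl1 and Eng, and the inhibitory Smad6 and Smad7. Bmp4 stood at 1029, 986, 912 and 1116 CPM against 133.9, 1.06, 51.2 and 126.9 CPM (4.23 ± 0.88, adjusted p = 0.0149). Eng, or endoglin, a co-receptor of the endothelium, stood at 811.1, 543.3, 702.6 and 665.5 CPM against 99.1, 22.2, 51.9 and 18.98 CPM (4.08 ± 0.39, adjusted p = 0.000699). Bmpr2 differed by 2.17 ± 0.24 (adjusted p = 0.00108) and Acvrl1 by 2.79 ± 0.46 (adjusted p = 0.00553).

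The Cd31- calls were the ligands Tgfb2, Tgfb3 and Inhba and the receptors Tgfbr1 and Bmpr1a. Tgfb3 stood at 8.63, 14.1, 16.4 and 7.97 CPM against 318.9, 118.3, 251.2 and 269.2 CPM (-4.33 ± 0.44, adjusted p = 0.000809), and Tgfb2 differed by -2.60 ± 0.29 (adjusted p = 0.00116). Bmpr1a, a BMP receptor, was also higher in Cd31- (-1.32 ± 0.29, adjusted p = 0.0181). Smad1, Smad2, Smad3, Smad4 and Smad5, which carry the signal inside the cell, were not called in either direction.

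**Figure D5:**
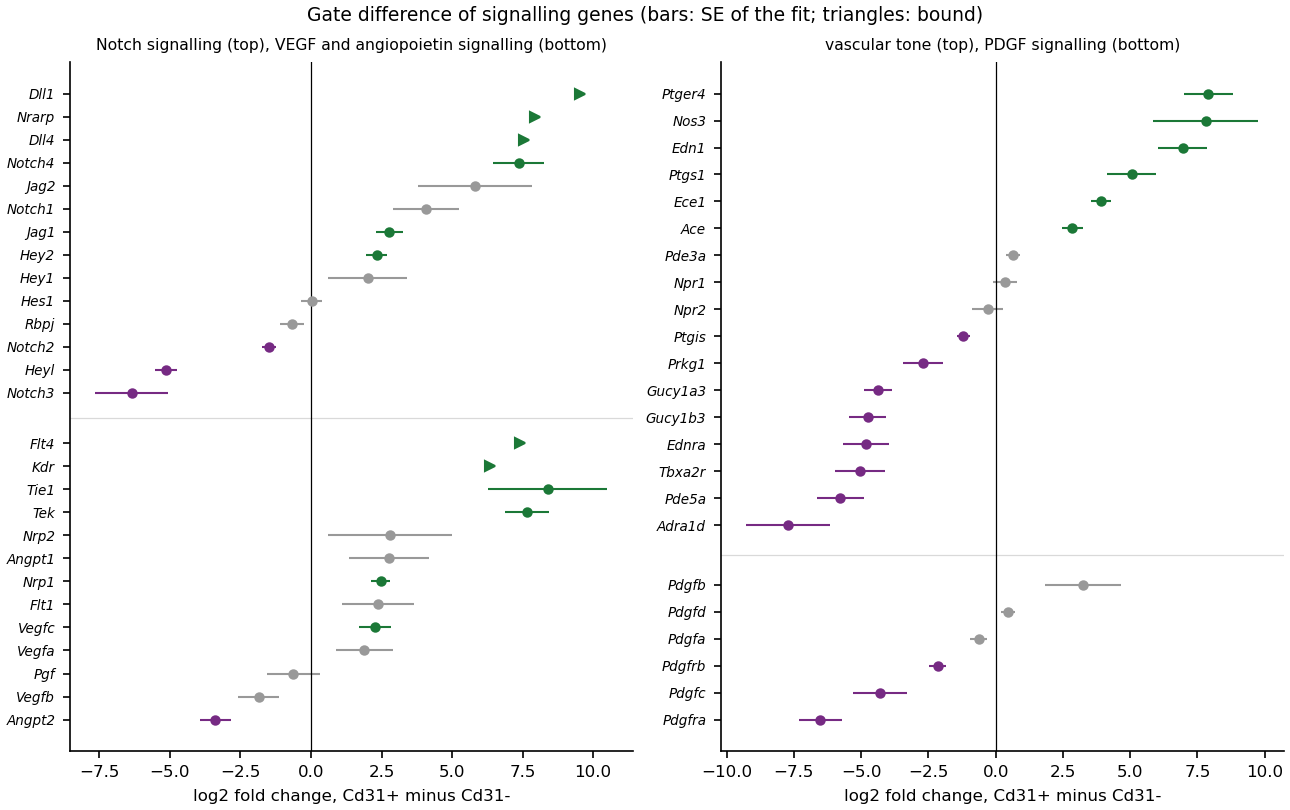
Log2 fold change between the gates (horizontal axis, positive when higher in Cd31+) for the genes of 4 lists, with bars for the SE of the fit, triangles at the bound for genes with 0 counts in Cd31-, and grey for genes not called. Dll1, Dll4, Edn1 and Nos3 lie to the right and Notch3, Ednra, Pdgfrb and Angpt2 to the left.

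Ligands and receptors were then read as 40 pairs. In 5 pairs the ligand and the receptor were called in opposite gates, in 5 both were higher in Cd31+ and in 1 both were higher in Cd31-. In 17 only 1 partner was called and in 12 neither was. These last 2 groups include partners that the filter on low counts kept from the test, such as Hgf, Csf1r and Aplnr. Aplnr had 1213 counts in Cd31+ and 0 in Cd31-. Jag1 with Notch3 and Edn1 with Ednra had the ligand in Cd31+ and the receptor in Cd31-. Angpt2 with Tek, Sema3c with Plxnd1 and Slit3 with Robo4 had the reverse order. Ednrb, the other receptor paired with Edn1, was not tested, with 990, 8, 2648 and 38 counts in Cd31+ and 0 in every Cd31- sum. The guidance ligand Sema3c stood at 3.93, 0.332, 6.40 and 0.595 CPM against 270.7, 330, 240.6 and 222.96 CPM (-7.09 ± 0.84, adjusted p = 0.00139), and its receptor Plxnd1 at 98.1, 63.2, 104.5 and 98.7 CPM against 2.20, 6.34, 10.6 and 4.74 CPM (4.10 ± 0.50, adjusted p = 0.00157). The sums of both genes were clear of each other, in opposite order.

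Slit3, another guidance ligand, differed by -6.68 ± 0.66 (adjusted p = 0.000733) and had 211.1 CPM in smooth muscle-like and 303.9 CPM in fibroblast-like Cd31- wells. The pairs with both partners in Cd31+ were Dll4 with Notch4, Vegfc with Flt4, Bmp4 with Bmpr2, Bmp6 with Acvrl1 and Efnb2 with Ephb4. Efnb2, the arterial ephrin, was at 161.5, 237.9, 157.8 and 228.6 CPM against 26.2, 40.1, 10.2 and 2.37 CPM (3.58 ± 0.58, adjusted p = 0.00529). Ephb4, its receptor known from veins, was at 51.8, 62.5, 69.4 and 53.4 CPM against 1.41, 7.39, 13.7 and 9.49 CPM (3.21 ± 0.58, adjusted p = 0.00825). The neurotrophin Ntf3 and its receptor Ntrk3 were both higher in Cd31- (-4.61 ± 0.48 and -7.45 ± 1.03, adjusted p = 0.000827 and 0.00267).

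Among pairs with 1 called partner, the growth factor Igf2 had 2 Cd31- counts in all against 70.9, 33.9, 47.8 and 40.1 CPM in Cd31+ (adjusted p = 0.00135). Igf1 was on the other side, at 278.2, 9.51, 170 and 1.19 CPM in Cd31- against 13.4, 0, 17.4 and 0.833 CPM (-3.87 ± 0.82, adjusted p = 0.0160), and its sums overlapped. The Gas6 receptor Axl was at 353.5, 304.2, 371.96 and 495.7 CPM in Cd31- against 10.97, 14.7, 14.99 and 3.69 CPM (-5.20 ± 0.51, adjusted p = 0.000713). Fgf1 differed by -6.99 ± 0.74 (adjusted p = 0.000879), with 143.6 CPM in smooth muscle-like and 0.462 CPM in fibroblast-like wells.

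In the chemokine and sphingolipid list 3 of 8 genes tested were higher in Cd31+ and none in Cd31-. S1pr1, the sphingosine 1-phosphate receptor that tightens the endothelial barrier, was at 571.8, 349.9, 349.4 and 335.5 CPM with a single count in the Cd31- sums, in WT_sort_1 (adjusted p = 7.91e-05). Lpar6 differed by 4.63 ± 0.83 and the membrane-bound chemokine Cx3cl1 by 3.29 ± 0.65 (adjusted p = 0.00802 and 0.0122).

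Angiomotin and Hippo genes, the family and pathway of the targeted gene, had calls in both directions. Of 18 tested, 3 were higher in Cd31+ (Amot, Tead2 and Ajuba) and 2 in Cd31- (Ctgf and Tead3), which is 16.7% and 11.1% beside 8.01% and 8.11% of all genes, with a median of 0.31. Amot, the founding angiomotin, was low, at 7.09, 16.2, 9.67 and 5.83 CPM against 1.098, 0, 0.220 and 0 CPM (4.71 ± 1.26, adjusted p = 0.0408). Tead2 was near the threshold (4.4997 ± 1.27, adjusted p = 0.0498). Ctgf, a matricellular target of the Yap coactivator, was at 24.3, 170.4, 52.1 and 137.04 CPM against 178.6, 807.02, 501.99 and 1142 CPM (-2.86 ± 0.26, adjusted p = 0.000586). Its value was higher in sort 2 than in sort 1 in both gates, for WT and for KO.

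Of 14 mural and mesenchymal transcription factors tested, 8 were higher in Cd31- (57.1%) and 2 in Cd31+ (14.3%), with a median of -2.21. Myocd, the coactivator that drives contractile genes, was at 2.03, 0.914, 12.8 and 7.38 CPM against 145.2, 325.3, 317.1 and 380 CPM (-6.10 ± 0.65, adjusted p = 0.000901). Its partner Srf was at 8.25, 5.23, 4.28 and 4.64 CPM against 12.1, 84.5, 22.6 and 52.2 CPM (-2.64 ± 0.70, adjusted p = 0.0384). The related coactivator Mkl2 was higher in Cd31+, at 347.7, 283.1, 294.1 and 283.96 CPM against 35.6, 116.2, 27.9 and 5.93 CPM (3.24 ± 0.61, adjusted p = 0.00957), as was Gata6 (2.01 ± 0.56, adjusted p = 0.0474). Of the Mkl2 counts in the WT_sort_2 Cd31- sum, 72.7% came from the endothelial-like well.

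Caveolae and lipid genes had 6 of 12 tested higher in Cd31+ (50%) and 3 in Cd31- (25%). Sdpr, a coat protein of caveolae, was at 1553, 1993, 1707 and 2549 CPM against 82.3, 127.8, 107.9 and 48.6 CPM (4.44 ± 0.36, adjusted p = 0.000504), and Plvap, which forms the diaphragms of caveolae, differed by 4.69 ± 0.76 (adjusted p = 0.00521). The coat protein Prkcdbp was somewhat higher in Cd31- (-0.84 ± 0.23, adjusted p = 0.0447). Ptrf, the core coat protein, was not called and its sums overlapped, at 2170.0, 2130.4, 2172 and 2497 CPM against 1304, 2719, 2319 and 2528 CPM. Within the Cd31- gate Ptrf had 2440 CPM in smooth muscle-like and 943.2 CPM in fibroblast-like wells. Scarb1, a receptor for high-density lipoprotein, was higher in Cd31+ (2.73 ± 0.66, adjusted p = 0.0270, sums overlapping).

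Of 14 coagulation genes tested, 5 were higher in Cd31+ (35.7%) and 3 in Cd31- (21.4%). Beside Vwf, the Cd31+ calls held F8, the clotting factor it carries, at 31.004, 23.5, 24.6 and 29.3 CPM with a single Cd31- count, and the protein C receptor Procr, at 343.8, 474.4, 447.04 and 488.3 CPM against 7.06, 0, 28.9 and 0 CPM (6.14 ± 0.96, adjusted p = 0.00450). F3, tissue factor, which starts clotting outside the vessel lumen, was at 2.17, 0.332, 5.27 and 0 CPM against 1491, 146.8, 522.4 and 117.4 CPM (-8.54 ± 0.75, adjusted p = 0.000581). In the Cd31- gate F3 had 2205 CPM in fibroblast-like and 14.7 CPM in smooth muscle-like wells. The protease inhibitor Serpine2 had the reverse split, 2193 CPM in smooth muscle-like and 78.3 CPM in fibroblast-like wells (-6.22 ± 0.81 between gates, adjusted p = 0.00206).

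Some genes known to react to tissue dissociation differed between the gates. Of 17 immediate early and stress genes tested 6 were higher in Cd31- (35.3%, beside 8.11% of all genes) and none in Cd31+, with a median of -1.04. Fos was at 621.8, 1121, 495.6 and 424.9 CPM in Cd31+ against 4104, 2549.9, 5238 and 1838 CPM in Cd31- (-2.36 ± 0.36, adjusted p = 0.00430), and Atf3 at 37.97, 41.1, 36.1 and 22.7 CPM against 400.9, 569.3, 690.6 and 164.8 CPM (-3.58 ± 0.31, adjusted p = 0.000562). Nr4a1, Socs3, Hsp90aa1 and Egr1 were the others, and Jun, Junb, Ier2 and Dusp1 were not called. Fos was high in both Cd31- classes, at 3673 CPM in smooth muscle-like and 5497 CPM in fibroblast-like wells. The part of dissociation in the gate difference was not tested.

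Housekeeping genes gave 1 call each way among 16 (6.25%), near the 8.01% and 8.11% of all genes, with a median of 0.15. B2m, the light chain of MHC class I, was at 9835, 5499, 3903 and 7749.7 CPM against 2633, 1525, 1138 and 2428 CPM (1.80 ± 0.17, adjusted p = 0.000683), and Actb, cytoplasmic actin, at 4277, 3163, 2138 and 3203 CPM against 7686, 10936, 7566 and 10722 CPM (-1.55 ± 0.22, adjusted p = 0.00324). The 10 most abundant genes with an absolute log2 difference under 0.25 had fitted differences between -0.03 and 0.20 and adjusted p-values of at least 0.568. They were picked for a small difference, so these values do not test likeness. Among them were Bgn, Cpe, Cst3, Eef1a1, Fstl1, Hsp90ab1, Ptrf, Rpl4 and Sepp1. A sum can also average unlike classes. Sepp1 had 807.8 CPM in smooth muscle-like and 6261 CPM in fibroblast-like Cd31- wells, while Bgn had 7343 and 7539 CPM. Bgn, the proteoglycan biglycan, was at 7366, 7794, 7285 and 8614 CPM in Cd31+ and at 8249, 5124, 7729 and 6348 CPM in Cd31-, so that this matrix gene overlapped where Dcn did not.

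Markers of other cell types were summed too. The summed CPM of 3 lymphatic markers was at most 22.8 in Cd31+ and 155.9 in Cd31- (154.96 CPM of it Pdpn in WT_sort_1), Prox1 having no Cd31- count. In the Cd31- gate Pdpn had 210.96 CPM in fibroblast-like wells and 0.0874 CPM in smooth muscle-like wells. Other lymphatic markers, not tested for low counts, leaned to Cd31+. Mmrn1 had 2249 counts in Cd31+, 2244 of them in KO_sort_1, and none in Cd31-. Lyve1 had 968 counts in Cd31+, 948 of them in KO_sort_1, and few in Cd31-. Prox1 and Reln also had most of their counts in the KO_sort_1 Cd31+ sum. Mesothelial markers summed to 0 in every Cd31+ sum and at most 1.87 CPM in Cd31-, and Schwann cell markers to at most 7.36 CPM. Adipocyte markers summed to 160.1 CPM in the WT_sort_1 Cd31+ sum and to 0 in the other 7 sums. Pericyte markers summed to 1.495 to 68.7 CPM in Cd31+ and 1727 to 2245 CPM in Cd31-. Of the longer marker lists, the 1 mesothelial gene tested, the keratin Krt18, was higher in Cd31+ (5.73 ± 1.07, adjusted p = 0.00939), and Ncam1, of the neural list, was higher in Cd31- (-2.25 ± 0.31, adjusted p = 0.00270).

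The 5 genes with the smallest p for a gate difference that differed between WT and KO were Entpd2, Mmp3, Igfbp6, Gimap6 and Abca8b, and none passed the adjustment. Entpd2, an ectonucleotidase, stood at 0.241, 0, 4.73 and 1.67 CPM in Cd31+ and at 1239.7, 81.3, 216.1 and 160.1 CPM in Cd31-. Its log2 difference was 6.37 ± 0.78 higher in KO than in WT (p = 8.12e-05 unadjusted, adjusted p = 0.940 by edgeR's quasi-likelihood test). Of the Entpd2 counts in the Cd31+ gate, 74.9% came from wells in clusters of the other gate and 29.5% from 1 well. Between the sorts, the 5 smallest p-values were those of Rarres2, Rbp4, E030013I19Rik, C3 and Sfrp2, at an adjusted p of 0.424 each. C3, the central complement component, stood at 27.3, 0, 12.9 and 0 CPM in Cd31+ and at 1125, 256.7, 170 and 683.1 CPM in Cd31-. Its Cd31+ counts were in the sort 1 sums alone.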

How the data were processed

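Single cells of perfused mouse aortas were sorted into plates and sequenced by Smart-seq2. The deposited values are counts of reads per gene and well that the authors made with STAR 2.7.7a, Picard 2.22.0 and HTSeq 0.9.1 on GRCm38, per the submitters' processing notes. The annotation release and the strand setting are not given in the sources used here, so antisense partners cannot be told apart. Of all counts 51.9% lay on genes, 1.25% on spike-ins and 46.9% on summary lines, and the last 2 kinds were left out of sums and tests. Of 24422 gene symbols, 95.7% were found in the annotation used for coordinates (GENCODE M21).

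Wells with at least 20000 gene counts and 500 genes were summed by gate and genotype label, giving 926398 to 94881185 counts per sum. Sums were scaled by TMM and tested with edgeR 4.0.16 (R 4.3.3, quasi-likelihood, genotype label as block, default filter on low counts). Genes with an adjusted p under 0.05 were called. Both gates of a label came from the same suspensions and plates, which is the pairing; deviations within the 4 labels correlated at 0.0865, 0.0345, 0.0858 and 0.0216. WT and KO were on separate plates in sort 1 and shared 1 plate in sort 2. Wells were clustered with Seurat 5.3.0. DESeq2 1.42.0, limma 3.58.1, RLE factors, left-out pairs, single sorts and genotypes, depth limits and left-out wells were the alternatives. The fit was tested on simulated data.

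Named genes were the 4 markers, Amotl2, EYFP and Ptprc, the 15 largest called differences each way (average log2 CPM of at least 5, same sign in 4 of 4 pairs), up to 6 members per list and any member against its list's direction, called ligands and receptors, the 5 smallest interaction p-values and the 10 most abundant genes with an absolute log2 difference under 0.25. The gates, lists and rules were chosen with earlier results of these data known. Sequences are from RefSeq promoter windows (GRCm38.p6). Some genes that the rule names are not reported here.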

Additional observations from a re-analysis of the deposited data

Results flagged for a closer look

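In 19 named genes, 12.8% of the sets of 4 pair differences checked, 1 pair lay far from the other 3 by Dixon's ratio, and chance flags about 1 in 20 such sets. Values are log2 differences, Cd31+ minus Cd31-, and those against a sum with 0 counts depend on the prior count. WT_sort_2 stood apart for Cldn5 (1.17, the others 13.32 to 13.64), Tie1 (1.60), Nos3 (1.72), Gja5 (2.10), Icam2 (7.44) and Gata2 (7.68). Each of these 6 genes has its highest Cd31- sum in WT_sort_2, the sum with the endothelial-like well.

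WT_sort_1 stood apart for Actb (-0.85), Acvrl1 (1.08), Nrp1 (1.19), Met (1.91), Notch4 (5.48), Ptger4 (5.93), S1pr1 (11.19), Edn1 (11.28) and Ednra (-5.75). For Met, Notch4, Ptger4 and S1pr1 the WT_sort_1 Cd31- sum was the only one with a count. KO_sort_2 stood apart for F8 (4.53), Sdpr (5.71), Cx3cl1 (10.03) and Srpx (-7.10). Cx3cl1 had 0 counts in the KO_sort_2 Cd31- sum and counts in the other 3.

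Gene counts per spike-in count on the log2 scale were lower in Cd31+ wells in both pairs of sort 1 (-0.200 in WT and -0.342 in KO) and higher in both pairs of sort 2 (0.496 in WT and 0.455 in KO). The difference between sorts was not tested.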

How the results depend on the processing

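Calls are given as percent of the genes tested under each setting, Cd31+ first. Without the replicate block 9.57% and 9.55% were called (1108 and 1106 genes). DESeq2 called 14.4% and 11.7%, and equal votes per well (limma) 17.9% and 10.4%. Sort 1 alone gave 3.61% and 3.85%, sort 2 alone 5.09% and 5.44%, WT alone 3.01% and 3.14%, and KO alone 4.75% and 5.44%, all with fewer sums. Wells of at least 100000 counts gave 5.90% and 5.03%. Leaving out 1 pair at a time gave 4.46% to 5.89% and 4.82% to 6.88%. No called gene was called in the opposite direction under these settings, but only 58.7% of the named calls were made in every alternative with a value, 43 being lost in WT alone and 38 in sort 1 alone. The count of genes whose gate difference differed between WT and KO was 5 by DESeq2 and 0 to 21 with 1 pair left out (21 without WT_sort_1). The spike-in difference of 0.102 turned to -0.0852 with all wells, to -0.271 in sort 1 alone and ranged from -0.0291 (without WT_sort_2) to 0.2504 with 1 pair left out (-0.0153 without KO_sort_2). The difference in detected genes was 496.5 at 100000 counts per well and -58.5 in sort 1 alone, and 98.3 to 292.5 with 1 pair left out. Amotl2 turned to 0.34 without KO_sort_2, 0.61 in WT alone and 0.30 with equal votes per well, and ranged from -0.66 to 0.34 with 1 pair left out. The cause was not tested. Leaving out wells in clusters of the other gate, added after the data were seen, gave 1041 and 1010 calls. The Cd31- sums hold 12 to 42 wells each, which limits what can be said of genes at 0 counts there.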

Other observations

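A single Cd31+ well of WT_sort_1, with 464116 gene counts and no count of Cdh5, Pecam1, Myh11 or Dcn, carried nearly all counts of genes known from fat cells in the Cd31+ gate. It had 3401 of 3402 Adipoq counts, 12406 of 12435 Car3 counts, 21809 of 21891 Cfd counts and all 1506 Retn counts, and these genes had 0 counts in Cd31-. Fabp4, which capillary endothelium also makes, was spread more widely, with 6155 of 39729 Cd31+ counts (15.5%) in this well. The well clustered among the endothelial-like wells, against its own markers. These genes were chosen after their values were seen.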
